A study of Mus musculus with 8 samples.

Results

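The genes described here encode the protein parts of the spliceosome and the proteins that steer it: SR proteins, hnRNP proteins, core proteins of the small nuclear ribonucleoproteins (snRNPs), factors of the 3′ splice site, and pre-mRNA processing factors. They were taken as the protein-coding genes whose GENCODE M21 symbol starts with Srsf, Hnrnp, Snrp, Sf3a, Sf3b, Prpf or U2af. The rule found 68 genes among the 141239 features of the count tables, of which 21865 are protein-coding Ensembl genes. There were 11 Srsf, 20 Hnrnp, 12 Snrp and 13 Prpf genes, and 12 genes of the Sf3a, Sf3b and U2af families. Spliceosome proteins with other symbols, such as Snrnp70 and Snrnp200, are outside the rule and are given as a separate list.

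Pre-mRNA splicing removes introns in a machine built from snRNPs, each a small RNA with a ring of Sm proteins and its own partners. U2AF and the SF3 complexes find the end of the intron and its branch point, and the PRPF proteins build and rearrange the tri-snRNP that carries out the reaction. SR proteins mostly favour the use of exons and hnRNP proteins often oppose it, and their balance sets many alternative exons, also those of sarcomere and ion channel genes of the heart.

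RNA was sequenced in bulk from whole hearts of 2-week-old mice of mixed strain, all knockouts (Lmna-/-) of Lmna, the gene of the nuclear lamins A and C. In 5 libraries (replicates 1 to 5) the knockout hearts had received wild-type LMNA in AAV9, an adeno-associated virus that reaches heart muscle. The other 3 libraries (replicates 6, 7 and 8) were knockout hearts with no vector in their labels, referred to as untreated. Hearts with a normal Lmna gene or with an empty vector were not analysed here, so effects of LMNA and of the virus cannot be told apart. Neither the labels nor the count tables give the vector's promoter and dose, or sex and litter. The labels do not say that the libraries came from separate animals, so each p-value is set by the variation among these 8 libraries, which may be technical in part.

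Lmna itself bore out the labels, with 393, 227, 325, 312 and 747 CPM (counts per 1000000 counts of the scaled library) in AAV9-LMNA hearts, against 46.4, 68.7 and 32.3 CPM in untreated hearts. Libraries held between 21439956 and 26492443 counts on features. The share of reads that touched no annotated feature was 12.4% ± 0.364 in AAV9-LMNA hearts (SD, n = 5) and 19.9% ± 4.19 in untreated hearts (SD, n = 3). The groups did not overlap in this share (two-sided exact permutation test, p = 0.0179, the smallest that 56 splits allow, 0.0446 adjusted over 5 library measures). Untreated replicates 6, 7 and 8 had 24.7, 16.8 and 18.4%. Among heart cell markers, 3 of 10 cardiomyocyte genes were called higher and 1 lower, 3 of 8 endothelial genes were called higher, 4 of 5 tested atrial genes were called lower, 1 of 5 tested lymphocyte genes was called higher, and none of 8 fibroblast and 8 macrophage genes was called. Of all coding genes tested, 18.4% were called higher and 6.07% lower, and of all features 10.6% and 15%. Summed cardiomyocyte markers ranged from 104857 to 127449 CPM in AAV9-LMNA hearts and from 118015 to 168145 CPM in untreated hearts. Summed atrial markers ranged from 72.9 to 191.8 CPM in AAV9-LMNA hearts and were 95.6, 83.3 and 1009.5 CPM in untreated replicates 6, 7 and 8. Without untreated replicate 8, 2 atrial genes were called lower; without AAV9-LMNA replicate 1, 2, 3, 4 or 5 the number was 2, 1, 0, 1 and 1, and DESeq2 called 1 and limma-voom 0. Fibroblast markers summed to between 4565 and 7459 CPM in AAV9-LMNA hearts, and to 1694, 6225 and 7026 CPM in untreated replicates 6, 7 and 8. Summed macrophage markers ranged from 412 to 443 CPM in AAV9-LMNA hearts and were 150, 500 and 248 CPM in untreated replicates 6, 7 and 8. Without untreated replicate 7, 7 of 8 macrophage genes and 3 of 5 lymphocyte genes were called higher. In that fit 29.9% of coding genes and 17% of all features were called higher. Summed lymphocyte markers ranged from 19.3 to 25.2 CPM in AAV9-LMNA hearts and from 4.92 to 24.3 CPM in untreated hearts. No listed marker was at 0 in all libraries. The part of these differences in the results below was not tested, and in whole hearts fewer cells of a type and less RNA per cell cannot be told apart.

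Several of these genes carry an alternative exon with an early stop codon, which sends the transcript to nonsense-mediated decay, and SR and hnRNP proteins are known to limit their own levels in this way. In GENCODE M21 such an exon that is skipped in a coding transcript was found in 16 of the 68 genes. The start of that exon is shown for 3 genes called higher below, because a count per gene adds the productive transcripts and those with the stop exon together. Each stretch runs 5′ to 3′ from the first base of the exon (GRCm38, GENCODE M21) to the first stop codon in the reading frame of the annotated transcript, and the capitals mark that stop codon.
Srsf3, chr17:29039454-29039487, plus strand: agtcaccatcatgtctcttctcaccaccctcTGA
Srsf9, chr5:115328347-115328428, plus strand: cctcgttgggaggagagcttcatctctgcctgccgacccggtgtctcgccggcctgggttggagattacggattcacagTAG
Hnrnpl, chr7:28817335-28817393, plus strand: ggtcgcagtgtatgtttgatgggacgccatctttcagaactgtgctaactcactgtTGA
The whole exons are 456, 358 and 70 bases long for Srsf3, Srsf9 and Hnrnpl. Whether a higher count came from transcripts with or without these exons cannot be told apart in these tables.

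Splicing genes were expressed at very different levels. Divided by the length of all exons of the gene, the highest mean was that of Prpf8, the large protein at the heart of the catalytic core, with 39.6 ± 1.57 CPM per kb in AAV9-LMNA hearts and 45.0 ± 3.94 CPM per kb in untreated hearts. The highest of the hnRNP genes was Hnrnpl, which binds CA-rich RNA, with 35.7 ± 2.35 CPM per kb in AAV9-LMNA hearts and 28.1 ± 1.31 CPM per kb in untreated hearts. Sf3b2, a subunit of the U2 snRNP, led its group with 31.2 ± 1.12 CPM per kb in AAV9-LMNA hearts and 28.4 ± 4.14 CPM per kb in untreated hearts. Srsf5 led the SR genes with 29.0 ± 1.98 CPM per kb in AAV9-LMNA hearts and 24.2 ± 10.2 CPM per kb in untreated hearts. The Sm protein gene Snrpd3 led the snRNP genes at a lower level, 6.89 CPM per kb in AAV9-LMNA hearts and 6.95 CPM per kb in untreated hearts. Apart from Prpf8, whose groups did not overlap, and Hnrnpl, the leading genes had overlapping groups.

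Some core factors had few or no counts in every library. Srsf7, an SR protein that also takes part in RNA export, had 0, 0, 1, 2 and 2 counts in AAV9-LMNA hearts and 1, 0 and 1 in untreated hearts. Sf3b5, a small subunit of SF3B, had 2, 2, 0, 3 and 1 counts in AAV9-LMNA hearts and 0, 3 and 1 in untreated hearts. Snrpf, 1 of the Sm proteins, had 7, 7, 7, 17 and 8 counts in AAV9-LMNA hearts and 8, 6 and 3 counts in untreated hearts, and 85.4% of its exon bases lie inside exons of other genes. Srsf12 and U2af1l4 also fell below the filter on low counts, which left 63 of the 68 genes for testing. Srsf1, the founding SR protein, passed it with only 0.949 to 1.55 CPM in AAV9-LMNA hearts and 0.862 to 1.28 CPM in untreated hearts. Reads that overlap more than 1 feature or map to several places were not counted, and overlaps with NONCODE transcripts, a catalogue of noncoding RNA counted in the same tables, were not checked here. A low count of these genes is therefore no measure of low expression.

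**Figure D1:**
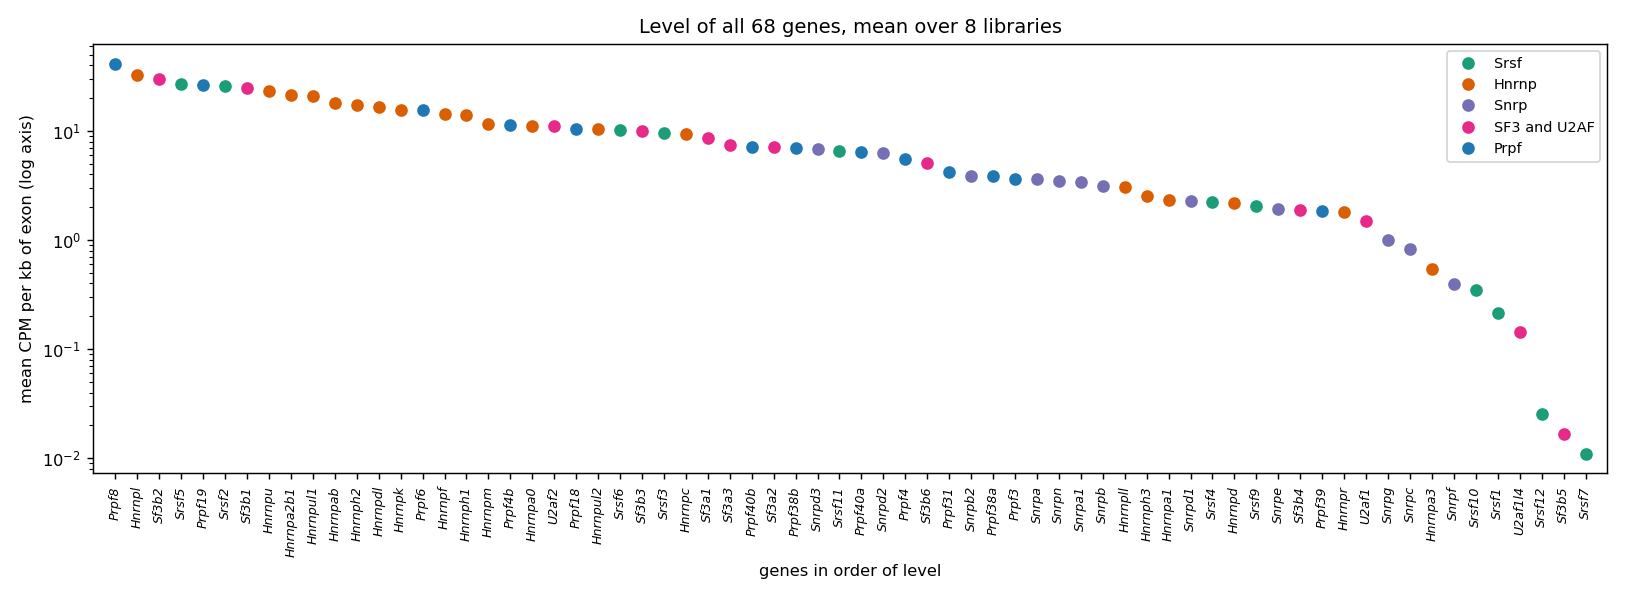
Mean level of each of the 68 genes over all 8 libraries, in CPM per kb of exon on a log axis, in order of level; each point is a gene, coloured by family. Prpf8 (41.6 CPM per kb) and Hnrnpl (32.9) lead, and Sf3b5 and Srsf7 stand last.

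Set against untreated hearts, AAV9-LMNA hearts had higher levels of 12 of the 63 tested genes and lower levels of 2, and 49 did not pass the test (edgeR's quasi-likelihood test with Benjamini-Hochberg adjustment over 26717 features, threshold 0.05). Across all protein-coding genes tested, 18.4% were called higher and 6.07% lower; across all features tested the shares were 10.6% and 15%. The 12 and 2 genes are 19.0% and 3.17% of the 63, so the share called higher was near that of coding genes. The median log2 fold change of the 63 genes was 0.21, as was that of the 13785 coding genes tested. All 5 AAV9-LMNA values lay above all 3 untreated values in 17 of the 63 genes (27%) and below them in 5 (7.94%). These shares were 23.1% and 6.61% of coding genes, and 13.8% and 16% of all features. Summed over all 68 genes, the level ranged from 3893 to 3988 CPM in AAV9-LMNA hearts and from 3440 to 3778 CPM in untreated hearts.

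These upward calls rested on the scaling. When library sizes were taken from Ensembl genes alone, without NONCODE features, fold changes of all genes shifted by -0.19 at the median on the log2 scale. None of the 63 genes was then called higher by edgeR's quasi-likelihood test (7 at an unadjusted p under 0.05), and 6 were called lower. In that fit 4.49 and 8.73% of coding genes, and 4.33 and 8.57% of all features, were called higher and lower. A fit that also left out NONCODE features and added a loess correction within each library for length and base composition of the transcripts, below the length-GC fit, shifted fold changes by -0.24, of which -0.19 came with the Ensembl genes alone. In it 1 gene (Hnrnpr) was called higher and 4 lower, against 2.55 and 5.3% of coding genes and 2.39 and 5.61% of all features. Hnrnpr, whose longest transcript of 21452 bases is the longest of the 63 genes, had a log2 fold change of 0.47 in this fit (adjusted p = 0.0121). It was -0.02 with all features scaled together and -0.22 with Ensembl genes alone, so its sign turned with the correction. The median of the 63 genes was 0.01 with Ensembl genes alone and -0.03 in the length-GC fit. Without untreated replicates 6 and 8, which leaves 1 untreated library that is assumed to vary like the AAV9-LMNA libraries, the more even group, 8 genes were called higher and 1 lower, against 7.42 and 3.85% of coding genes and 3.81 and 3.36% of all features. With the share of reads outside features as a covariate, Srsf5 and Srsf2 were called higher and no gene lower (3 at an unadjusted p under 0.05), against 0.508 and 1.6% of coding genes and 0.292 and 0.88% of all features.

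**Figure D2:**
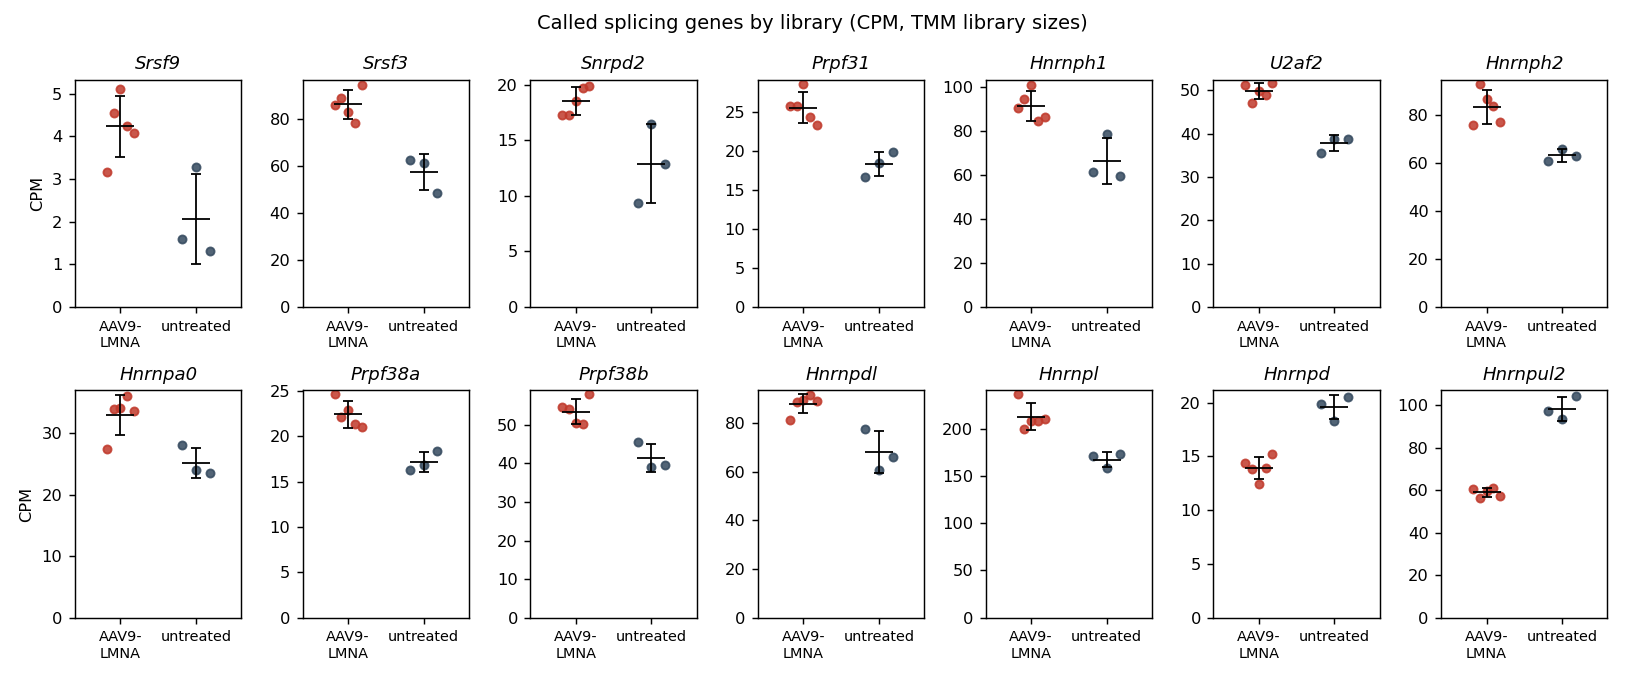
CPM of the 14 called genes in each library, with AAV9-LMNA hearts left of untreated hearts in every panel; points are libraries, and bars are the group mean and its SD (n = 5 and n = 3). The groups are apart in 12 of the panels and overlap for Srsf9 and Hnrnpa0.

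Among the SR genes, which encode proteins with an RNA-binding domain and an arginine-serine tail, 2 of 9 tested genes were called higher and none lower. Srsf3 (chr17:29032628-29043373), the smallest SR protein, had 85.9, 89.0, 83.1, 78.3 and 94.3 CPM in AAV9-LMNA hearts, against 62.5, 61.0 and 48.6 CPM in untreated hearts. The groups did not overlap, and its log2 fold change was 0.59 (SE 0.11, adjusted p = 0.00565). With Ensembl genes alone the value was 0.38 with an adjusted p of 0.0633. Srsf9 (chr5:115327177-115333080) had 3.18, 4.55, 5.12, 4.25 and 4.08 CPM in AAV9-LMNA hearts, against 1.6, 3.28 and 1.32 CPM in untreated hearts. Untreated replicate 7 lay above the lowest AAV9-LMNA library, and the log2 fold change was 1.03 (SE 0.31, adjusted p = 0.0314). The call of Srsf9 was lost without AAV9-LMNA replicate 2, 3, 4 or 5 or untreated replicate 6 or 8, with adjusted p between 0.0543 and 0.0955 and log2 fold changes between 0.80 and 1.04. Without untreated replicate 7 the log2 fold change was 1.55. It was 0.66 in the length-GC fit (adjusted p = 0.175), 0.38 without untreated replicates 6 and 8 (adjusted p = 0.458) and 0.10 with the share of reads outside features as a covariate (adjusted p = 0.965). Transcripts of other genes hold near-identical copies of 49.5% of the longest coding transcript of Srsf3, so its counts are uncertain.

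The untreated libraries were spread widely for Srsf5, a splicing activator related to Srsf4 and Srsf6; it was chosen for this description after its values were seen, beside leading its family by level. It had 127, 111, 112, 108 and 121 CPM in AAV9-LMNA hearts and 141, 60.2 and 88.7 CPM in untreated hearts. Untreated replicate 6 was the highest library of all and replicate 7 the lowest, and the difference was not called (log2 fold change 0.26, adjusted p = 0.383). Without untreated replicate 6 the log2 fold change was 0.65 and passed (adjusted p = 0.0111). Of the longest coding transcript of Srsf5, 51.7% has near-identical copies in transcripts of other genes. Srsf2, whose groups also overlapped, had 82.1, 74.1, 80.3, 79.3 and 90.7 CPM in AAV9-LMNA hearts and 83.3, 59.4 and 60.0 CPM in untreated hearts, with the same untreated library on top. Srsf4 lay the other way, with 7.20, 7.20, 6.78, 7.13 and 6.84 CPM in AAV9-LMNA hearts and 10.5, 8.06 and 9.44 CPM in untreated hearts. Its groups did not overlap, and it missed the threshold (log2 fold change -0.41, adjusted p = 0.0556) but passed it with Ensembl genes alone (-0.61, adjusted p = 0.0234) and in the length-GC fit (-0.67, adjusted p = 0.0233). The value was -0.18 without untreated replicates 6 and 8, and -0.02 with the share of reads outside features as a covariate (adjusted p = 0.984). The gene shares 43.0% of its exon bases with another annotated gene, and reads were counted without strand.

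Of the 20 hnRNP genes, all tested, 5 were called higher and 2 lower. The 2 that were lower had the smallest adjusted p-values of the family. Hnrnpul2 (chr19:8820010-8834143), an hnRNP U relative known from DNA repair, had 60.6, 56.3, 59.5, 61.1 and 57.3 CPM in AAV9-LMNA hearts, against 97.2, 93.3 and 105 CPM in untreated hearts. The groups lay far apart, with a log2 fold change of -0.74 (SE 0.08, adjusted p = 0.00076). The value was -0.94 (adjusted p = 0.000247) with Ensembl genes alone and -0.83 (adjusted p = 0.000482) in the length-GC fit. It was -0.65 without untreated replicates 6 and 8, where 1 untreated library is left and the spread comes from the AAV9-LMNA libraries. With the share of reads outside features as a covariate it was -0.72 and missed the threshold (adjusted p = 0.0803).

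Hnrnpd (chr5:99955935-99978938, minus strand) encodes AUF1, which binds AU-rich elements and speeds the decay of many messenger RNAs. It had 14.4, 13.8, 12.4, 14 and 15.2 CPM in AAV9-LMNA hearts, against 19.9, 18.3 and 20.6 CPM in untreated hearts. No values overlapped, and the log2 fold change was -0.49 (SE 0.11, adjusted p = 0.0121). It was -0.69 (adjusted p = 0.0044) with Ensembl genes alone and -0.47 (adjusted p = 0.0291) in the length-GC fit. The call was lost without untreated replicates 6 and 8 (-0.38, adjusted p = 0.15) and with the covariate (-0.37, adjusted p = 0.554). Leaving out any single library kept the calls of both Hnrnpul2 and Hnrnpd.

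The 5 hnRNP genes called higher changed by less than 1.4-fold. Hnrnph1 (chr11:50376990-50386528) and Hnrnph2 (chrX:134601179-134607060) encode a closely related pair that binds G-rich runs. Hnrnph1 had 90.5, 94.5, 101, 84.5 and 86.2 CPM in AAV9-LMNA hearts, against 61.3, 78.5 and 59.4 CPM in untreated hearts (log2 fold change 0.46, SE 0.11, adjusted p = 0.0159). Hnrnph2 had 75.7, 93.0, 86.7, 83.5 and 77.0 CPM in AAV9-LMNA hearts, against 60.6, 65.9 and 63.0 CPM in untreated hearts (0.40, SE 0.10, adjusted p = 0.0149). Neither pair of groups overlapped, but 35.4% of the longest coding transcript of Hnrnph2 has near-identical copies in transcripts of other genes. Hnrnpl (chr7:28808541-28822266) had 237, 200, 208, 208 and 211 CPM in AAV9-LMNA hearts, against 171, 159 and 173 CPM in untreated hearts (0.35, SE 0.09, adjusted p = 0.0182). Hnrnpdl, a relative of Hnrnpd that was called in the other direction, averaged 87.9 ± 3.83 CPM in AAV9-LMNA hearts and 68 ± 8.77 CPM in untreated hearts (0.37, adjusted p = 0.0227). Hnrnpa0, a gene with no introns in its coding part, averaged 33.0 ± 3.26 CPM in AAV9-LMNA hearts and 25.2 ± 2.46 CPM in untreated hearts (0.39, adjusted p = 0.0325), and its groups overlapped. The call of Hnrnph1 was lost without untreated replicate 8 (0.39, adjusted p = 0.0519). Those of Hnrnpdl and Hnrnpa0 were lost without AAV9-LMNA replicate 2, 3, 4 or 5 or untreated replicate 8, with adjusted p from 0.0553 to 0.0621 for Hnrnpdl (0.35 to 0.36) and from 0.0697 to 0.0912 for Hnrnpa0 (0.35 to 0.37).

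The abundant hnRNP genes Hnrnpa2b1 and Hnrnpu were not called. Hnrnpu, which also organises chromatin, had 296, 265, 284, 298 and 266 CPM in AAV9-LMNA hearts and 298, 247 and 219 CPM in untreated hearts. Hnrnpa2b1 had 150, 157, 147, 142 and 135 CPM in AAV9-LMNA hearts and 118, 150 and 124 CPM in untreated hearts. Both overlapped between groups. Hnrnpk and Hnrnpf lay above untreated hearts in all AAV9-LMNA libraries without passing the test. Hnrnpk had 105 to 111 CPM in AAV9-LMNA hearts and 86.1 to 98.9 CPM in untreated hearts. Hnrnpf had 44.7 to 46.1 CPM in AAV9-LMNA hearts and 38 to 41.6 CPM in untreated hearts. Near-identical copies in transcripts of other genes cover 46.4% of the longest coding transcript of Hnrnpk and 59.5% of that of Hnrnpf. Hnrnpc, a protein that packages nascent transcripts, had 39.3, 44.0, 42.5, 44.5 and 40.7 CPM in AAV9-LMNA hearts, all inside the untreated range of 25.4 to 50.1 CPM. Hnrnpa1 had 6.18 to 8.78 CPM in AAV9-LMNA hearts and 4.39 to 8.08 CPM in untreated hearts. Of its longest coding transcript, 58.5% has near-identical copies in transcripts of other genes.

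The snRNP genes had the highest median, 0.44 on the log2 scale over 11 tested genes, of which 10 were above 0 and 1 was called. Without untreated replicate 7, 6 of the 11 were called higher, against 29.9% of coding genes and 17% of all features in that fit. Without any other single library none was called by edgeR (1 to 5 at an unadjusted p under 0.05). The gene called with all libraries was Snrpd2 (chr7:19149722-19153542), which encodes 1 of the Sm ring proteins. It had 17.2, 17.3, 18.5, 19.7 and 19.9 CPM in AAV9-LMNA hearts, against 9.39, 16.5 and 12.9 CPM in untreated hearts, and the log2 fold change was 0.52 (SE 0.17, adjusted p = 0.0411). All AAV9-LMNA libraries lay above untreated replicate 7, the closest, by less than 1 CPM in the lowest case. The call was lost when any single library other than untreated replicate 7 was left out, with adjusted p from 0.0554 to 0.0988 and log2 fold changes from 0.35 to 0.55. With the share of reads outside features as a covariate the value turned to -0.26. The other Sm genes Snrpb, Snrpd1 and Snrpe also lay above untreated hearts in every AAV9-LMNA library without being called. Snrpb had 6.17 to 7.62 CPM in AAV9-LMNA hearts and 4.04 to 5.84 CPM in untreated hearts. Snrpd1 had 4.67 to 5.84 CPM in AAV9-LMNA hearts and 3.04 to 4.65 CPM in untreated hearts. Snrpe, also low, had 2.13 to 3.46 CPM in AAV9-LMNA hearts and 2.00 to 2.09 CPM in untreated hearts. Snrpd3 did not follow them, with 25, 25.2, 23.1, 21.5 and 23.8 CPM in AAV9-LMNA hearts and 22.5, 26.7 and 22.5 CPM in untreated hearts (log2 fold change -0.01, adjusted p = 0.949). Snrpb2, a partner of the U2 RNA, had 11.1 to 13 CPM in AAV9-LMNA hearts, against 5.66, 11.8 and 8.85 CPM in untreated replicates 6, 7 and 8. Near-identical copies in transcripts of other genes cover 25.1, 42.0 and 33.6% of the longest coding transcripts of Snrpd2, Snrpd1 and Snrpe.

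Summed over the snRNP genes, AAV9-LMNA hearts had 106.7 to 113.6 CPM and untreated hearts 74.5 to 102.2 CPM. These are short genes, and 9 of the 11 fell into the shortest of 5 length classes of coding genes. The coding genes of that class had a median log2 fold change of 0.41, against -0.05 for the longest class. The median of the snRNP genes was 0.25 with Ensembl genes alone and 0.06 in the length-GC fit.

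Of the factors of the 3′ splice site and branch point, 1 of 10 was called higher and none lower. U2af2 (chr7:5062143-5079938), the U2AF subunit that binds the polypyrimidine tract, had 51.3, 47.2, 49.8, 49.0 and 51.7 CPM in AAV9-LMNA hearts, against 35.6, 38.8 and 38.9 CPM in untreated hearts. The groups were far apart beside the spread within each (log2 fold change 0.40, SE 0.09, adjusted p = 0.0105). The value was 0.20 with Ensembl genes alone (adjusted p = 0.113). Of the longest coding transcript of U2af2, 64.8% has near-identical copies in transcripts of other genes. Its partner U2af1 had 3.56 to 4.49 CPM in AAV9-LMNA hearts and 2.69 to 4.59 CPM in untreated hearts, and was not called. Near-identical copies in transcripts of other genes cover 74.7% of the longest coding transcript of U2af1. Sf3b1, the branch point subunit that is mutated in some human blood cancers, had 293, 295, 295, 290 and 294 CPM in AAV9-LMNA hearts and 312, 225 and 242 CPM in untreated hearts, an even group beside a spread one. Sf3b2 had 225, 206, 210, 207 and 215 CPM in AAV9-LMNA hearts and 223, 166 and 193 CPM in untreated hearts (0.13, adjusted p = 0.342). Sf3a2, a subunit of SF3A, was below untreated hearts in every AAV9-LMNA library, with 17.3, 16.1, 18.9, 17.6 and 17.4 CPM in AAV9-LMNA hearts and 19.9, 20.4 and 22.7 CPM in untreated hearts. It was not called (-0.27, adjusted p = 0.0848), but it was called with Ensembl genes alone (-0.46, adjusted p = 0.0132) and in the length-GC fit (-0.57, adjusted p = 0.00694). The value was -0.21 without untreated replicates 6 and 8, and -0.37 with the share of reads outside features as a covariate (adjusted p = 0.518).

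Of the 13 Prpf genes 3 were called higher and none lower. Prpf31 (chr7:3629985-3642486), which joins U4 and U6 to U5 and is mutated in a human retinal degeneration, had 25.8, 25.8, 28.6, 24.3 and 23.4 CPM in AAV9-LMNA hearts, against 16.7, 18.4 and 19.8 CPM in untreated hearts (log2 fold change 0.48, SE 0.11, adjusted p = 0.0127). Prpf38a had 24.6, 22.1, 22.9, 21.3 and 21 CPM in AAV9-LMNA hearts, against 16.3, 16.8 and 18.4 CPM in untreated hearts (0.38, SE 0.11, adjusted p = 0.0255). Prpf38b had 54.7, 54.0, 50.4, 50.1 and 57.9 CPM in AAV9-LMNA hearts, against 45.4, 38.9 and 39.5 CPM in untreated hearts (0.37, SE 0.10, adjusted p = 0.0198). None of the 3 had overlapping groups. Their calls were lost without AAV9-LMNA replicate 2 or 3 or untreated replicate 6 for Prpf38a (0.36 to 0.38, adjusted p from 0.0547 to 0.063), and without AAV9-LMNA replicate 2 or 5 or untreated replicate 8 for Prpf38b (0.33 to 0.36, adjusted p from 0.0523 to 0.0542). Prpf31 kept its call whichever library was left out, and 18.1% of its exon bases overlap another annotated gene.

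Prpf8 lay the other way, with 282, 308, 288, 307 and 294 CPM in AAV9-LMNA hearts, against 311, 368 and 328 CPM in untreated hearts. The groups were close without overlapping, and the difference was not called (log2 fold change -0.18, adjusted p = 0.138). With Ensembl genes alone it passed the test (-0.38, adjusted p = 0.0163), but in the length-GC fit it did not (-0.10, adjusted p = 0.469). Prpf19, a ubiquitin ligase of the catalytic spliceosome, had 186 to 235 CPM in AAV9-LMNA hearts and 156 to 208 CPM in untreated hearts, and was not called.

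**Figure D3:**
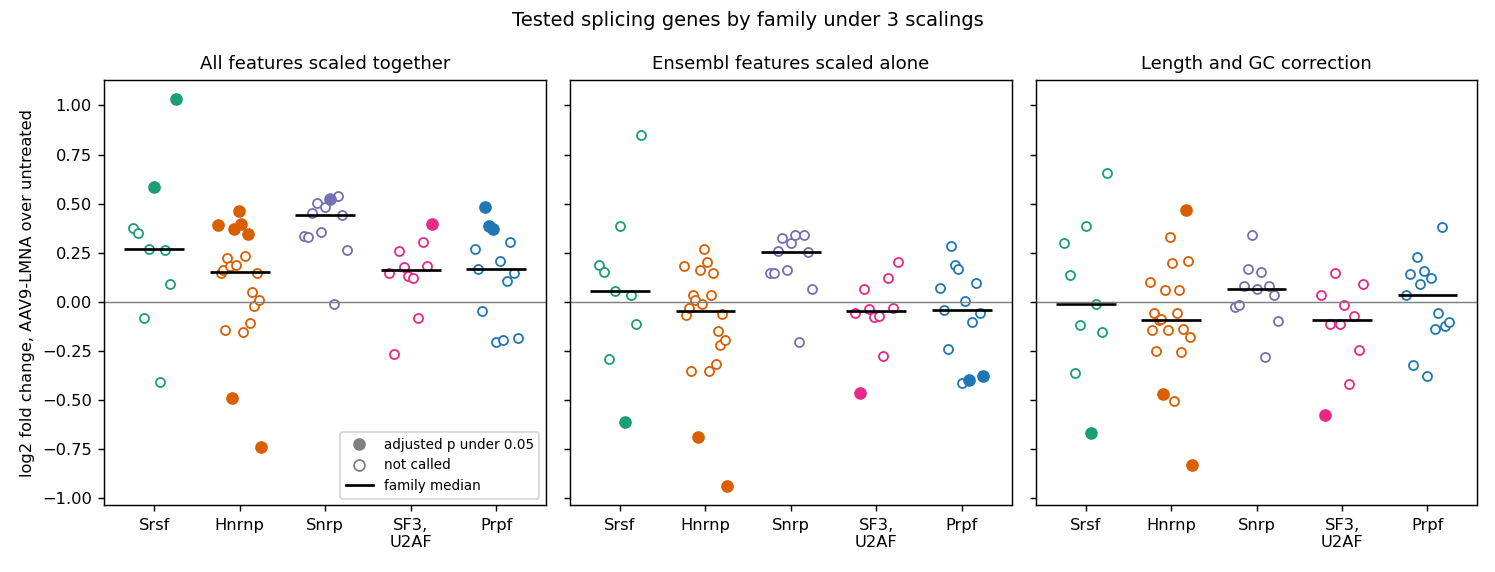
Log2 fold change (AAV9-LMNA over untreated hearts) of each tested gene by family, with all features scaled together, with Ensembl features alone and with Ensembl features alone after the length-GC correction; filled points are called genes and lines are family medians. With all features together the Snrp genes have the highest median (0.44) and Hnrnpul2 is the lowest point (-0.74), and the filled points above 0 are gone with Ensembl features alone.

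Over the families, the medians moved together with the scaling. The SR genes had a median of 0.27 with all features scaled together, 0.05 with Ensembl genes alone and -0.01 in the length-GC fit. For the hnRNP genes the medians were 0.15, -0.05 and -0.09, for the SF3 and U2AF genes 0.16, -0.05 and -0.09, and for the Prpf genes 0.17, -0.04 and 0.03, each in the same order of scalings. The snRNP genes had 0.44, 0.25 and 0.06. With the share of reads outside features as a covariate their median was -0.12, with 5 genes above 0 and 6 below, and none called by edgeR or with an unadjusted p under 0.05.

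Untreated libraries varied more between themselves than AAV9-LMNA libraries in most of these genes. The SD of log2 CPM was larger in untreated hearts in 48 of 63 genes. This was not counted over all coding genes, so it is not shown to be particular to the splicing genes. Untreated replicate 6 did not stand on 1 side, since it was above replicate 7 in 32 of the 63 genes and below it in the others. Of the untreated libraries, replicates 6, 7 and 8 fell inside the AAV9-LMNA range in 17, 16 and 15 genes. Length ran with the fold change: over the 63 genes the Spearman correlation of log2 fold change with the length of the longest transcript was -0.42, and over 11600 coding genes it was -0.45, both as descriptions of genes that share the same 8 libraries. The correlation with GC content was -0.11 over the 63 genes and 0.08 over the coding genes.

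Retained introns are common in the annotation of these genes, and 50 of the 68 have a GENCODE transcript with one. Reads from unspliced RNA would be counted over such exon bases. Split by the share of exon bases that no transcript other than a retained-intron one holds, the 15 tested genes with none had a median of 0.27 on the log2 scale, and 5 of them were called higher and none lower. The 22 genes with up to 25% of such bases had a median of 0.15, with 2 called higher and 1 lower. The 26 genes with over 25% had a median of 0.21, with 5 called higher and 1 lower. Coding genes in the same classes had medians of 0.25, 0.20 and 0.21.

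**Figure D4:**
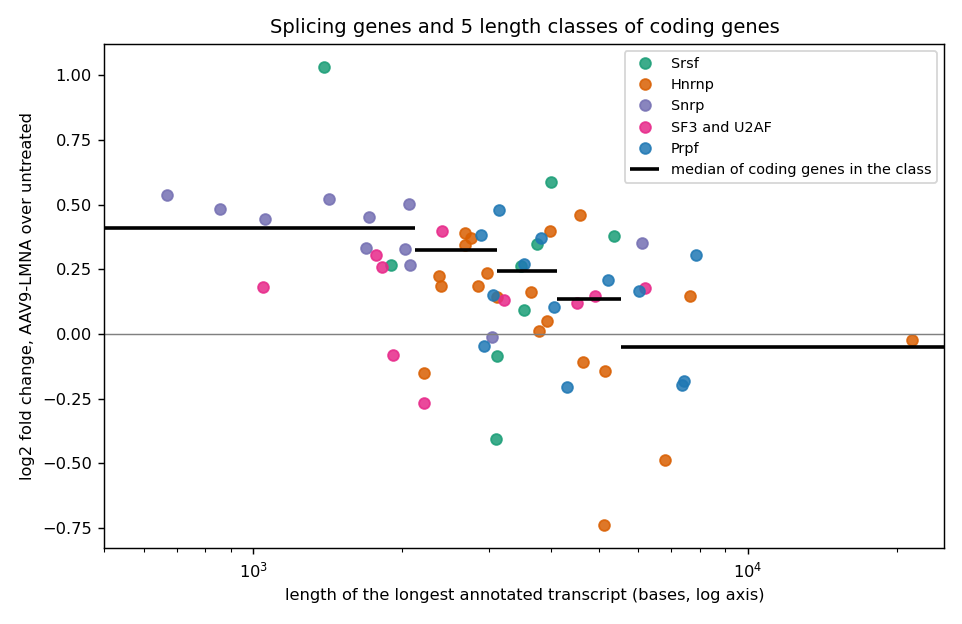
Log2 fold change (AAV9-LMNA over untreated hearts) against the length of the longest transcript in bases (log axis) for the tested splicing genes, coloured by family, over the median of coding genes in 5 length classes. Short genes, most Snrp genes among them, lie higher than long ones, and the class medians of coding genes run from 0.41 to -0.05.

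Splicing genes outside the symbol rule were read from 5 lists, chosen with results of these data known. Of 122 tested genes, 31 were called higher (25.4%) and 11 lower (9.02%), against 18.4 and 6.07% of coding genes and 10.6 and 15% of all features, and their median was 0.23 on the log2 scale. With Ensembl genes alone, 1 was called higher and 13 lower, against 4.49 and 8.73% of coding genes. In the length-GC fit 2 were called higher and 13 lower, against 2.55 and 5.3% of coding genes. Spliceosome proteins with other symbols had 21 of 60 genes called higher and 1 lower, which was Sf1, the branch point binding protein (-0.32). With Ensembl genes alone, in the length-GC fit and with the covariate, edgeR called 1 of the 60 higher in each fit. An unadjusted p under 0.05 was reached upward by 14, 8 and 9 of them, and 2, 3 and 0 were called lower. Assembly factors of the SMN and methylosome complexes, which load the Sm ring, had 3 of 12 called higher: Gemin6 (0.69), Coil (0.50) and Prmt5 (0.36). By edgeR none was called with Ensembl genes alone, in the length-GC fit or with the covariate (2, 1 and 1 at an unadjusted p under 0.05). With 1 library left out, 1 was called without AAV9-LMNA replicate 3. Without untreated replicate 7, 6 were called, against 29.9% of coding genes. Without any other single library edgeR called none (5 at an unadjusted p under 0.05). SR-related cofactors had 3 of 24 called higher and 5 lower, and relatives of the hnRNP proteins 2 of 19 called higher and 5 lower.

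Lower genes of these lists included Pcbp2 and Srrm2, whose groups did not overlap. Pcbp2, a poly(C)-binding protein, had 17.1, 16.5, 17.0, 15.5 and 18.6 CPM in AAV9-LMNA hearts, against 34.0, 36.5 and 38.0 CPM in untreated hearts (log2 fold change -1.09, SE 0.10, adjusted p = 0.000234), and 36.2% of its exon bases overlap other genes. Srrm2, a large scaffold protein of nuclear speckles, where splicing factors gather, had 251, 198, 225, 240 and 216 CPM in AAV9-LMNA hearts, against 506, 425 and 477 CPM in untreated hearts (-1.05, SE 0.10, adjusted p = 0.00027). Both were also called lower with Ensembl genes alone and in the length-GC fit. With the share of reads outside features as a covariate, Pcbp2 (-1.24, adjusted p = 0.0218) was called and Srrm2 was not (-0.78, adjusted p = 0.0943).

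The largest upward differences of these lists were in genes of low level. Rbm3, a protein induced by cold, had 7.38, 5.99, 6.17, 6.87 and 6.57 CPM in AAV9-LMNA hearts, against 2.13, 5.29 and 1.72 CPM in untreated hearts (log2 fold change 1.11, SE 0.32, adjusted p = 0.0288). Lsm7, of the ring around U6 RNA, had 1.33 to 1.90 CPM in AAV9-LMNA hearts and 0.853 to 1.03 CPM in untreated hearts (0.82, adjusted p = 0.0354). Pdcd7, a protein of the minor spliceosome, had 3.99 to 5.72 CPM in AAV9-LMNA hearts and 1.77 to 3.54 CPM in untreated hearts (0.77, adjusted p = 0.0448). The groups did not overlap in any of the 3, but none of the calls was stable. Rbm3 lost its call without any single library other than untreated replicate 7 (adjusted p from 0.0501 to 0.0863), Lsm7 without any other than AAV9-LMNA replicate 2 (0.0579 to 0.076), and Pdcd7 without any AAV9-LMNA library or untreated replicate 8 (0.0528 to 0.119).

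SR proteins are phosphorylated by the SRPK and CLK kinases, which set where they reside and how active they are. Of the 7 kinase genes, 2 were called higher and none lower, and neither call held with Ensembl genes alone or in the length-GC fit. Srpk1 had 49.3, 49.8, 50.3, 51.7 and 55.4 CPM in AAV9-LMNA hearts, against 38.2, 45.0 and 37.9 CPM in untreated hearts (log2 fold change 0.35, adjusted p = 0.0253). Clk3 had 48.5, 48.7, 43.8, 44.6 and 44.2 CPM in AAV9-LMNA hearts, against 39.3, 32.7 and 35.2 CPM in untreated hearts (0.36, adjusted p = 0.0223). Neither had overlapping groups. Srpk1 missed the threshold without any single library other than AAV9-LMNA replicate 1 or untreated replicate 7 (adjusted p from 0.0501 to 0.073), and Clk3 without AAV9-LMNA replicate 2 (0.0649) or untreated replicate 8 (0.0524). Clk1 and Clk4, whose own transcripts hold retained introns, had untreated replicate 6 as the highest untreated library, as Srsf5 did. Clk1 had 119, 101, 102, 89.1 and 104 CPM in AAV9-LMNA hearts and 112, 68.7 and 63.6 CPM in untreated hearts (0.34, adjusted p = 0.165), and Clk4 had 53.7 to 67.2 CPM in AAV9-LMNA hearts and 71.1, 40.8 and 40.9 CPM in untreated hearts (0.22, adjusted p = 0.376). Without untreated replicate 6 both passed the test, with log2 fold changes of 0.65 for Clk1 (adjusted p = 0.00514) and 0.55 for Clk4 (adjusted p = 0.00938), as did Clk2 (0.35, adjusted p = 0.0412, against 0.19 and 0.236 with all libraries). Srpk3, a kinase of heart and skeletal muscle, had 32.7 to 47.3 CPM in AAV9-LMNA hearts and 29.7 to 37.1 CPM in untreated hearts and was not called (0.34, adjusted p = 0.0851). Srpk2 had 179 CPM in AAV9-LMNA replicate 1 and 58.0 to 64.7 CPM in the other AAV9-LMNA libraries, against 59.8 to 91.1 CPM in untreated hearts; its log2 fold change was 0.20 (adjusted p = 0.738), and -0.27 without that library.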

How the data were processed

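The authors deposited raw counts of reads per feature, 1 table per library, as whole numbers with no normalization. By the names of the deposited tables, counting ignored strand; their rows are 53465 Ensembl and 87774 NONCODE features. Per the submitters' processing notes, the tools included HTSeq and TopHat2, with limma and edgeR, and the builds were GRCm38 and mm10; versions and other steps are not stated there. The 5 summary lines of each table entered neither scaling nor tests. Reads outside features are given above as a share of reads on features, outside them or ambiguous.

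Symbols, coordinates, lengths and transcripts came from GENCODE M21 (GRCm38), which matched 53274 Ensembl identifiers. Counts were filtered with filterByExpr, scaled by TMM over all features, and tested with edgeR 4.0.16 (R 4.3.3) by quasi-likelihood (robust, group as the only term), with p-values adjusted by Benjamini-Hochberg. CPM is the count per 1000000 of the TMM library size. Near-identical copies were sought with BLAST 2.17.0 in GENCODE transcripts of other, non-overlapping genes (at least 95% identity over 50 bases). Their share is given over the longest coding transcript of the gene. This share was over 25% in 19 of the 68 genes, not all of which are named with it above. Alternatives were RLE factors, DESeq2 1.42.0, limma-voom (limma 3.58.1), other filters, Ensembl features alone, Ensembl features alone with a length-GC correction (loess, span 0.5), the share of reads outside features as a covariate, and left-out libraries. The scripts were tested on simulated counts.

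Named genes were every called gene of the symbol rule, the most abundant gene of each family, the 3 rising and 3 falling called genes of the other lists with the largest fold change, and the SR protein kinases; 1 gene so named is not reported here, though counts of its list include it. Others were chosen after their values were seen. The genes and lists were chosen with earlier results of these data known.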

Additional observations from a re-analysis of the deposited data

Results flagged for a closer look

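Of 36 groups of 5 libraries given Dixon's test, 2 held a library far from the others, where chance gives about 1 in 20. Srpk2 had 179 CPM in AAV9-LMNA replicate 1, against 58.0 to 64.7 CPM in the other 4 AAV9-LMNA libraries (gap over range 0.944, critical value 0.71). The gene shares 6.99% of its exon bases with Kmt2e. Hnrnpdl had 81.3 CPM in AAV9-LMNA replicate 1, against 88.5 to 91.3 CPM in the other AAV9-LMNA libraries (gap over range 0.719).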

How the results depend on the processing

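With Ensembl features alone, 660 features were called higher and 1307 lower, against 2843 and 4015 in the main test, and 0 and 6 of the splicing genes of the symbol rule, against 12 and 2. The length and GC correction was fitted on Ensembl features alone, so it changes both choices, and gave 364 and 856 features and 1 and 4 genes. With the share of reads outside features as a covariate they were 78 and 235 features and 2 and 0 genes, and this share itself separates the groups. Without untreated replicates 6 and 8, with the spread taken from the AAV9-LMNA libraries, they were 1139 and 1004 features and 8 and 1 genes. A minimum of 1 CPM in 3 libraries gave 4 genes called lower. Leaving out 1 library gave 1528 to 4773 features higher, 2207 to 5260 lower and 6 to 21 genes higher; the 21 came without untreated replicate 7. Outside the rule, 31 splicing genes were called higher in the main test and 1 with Ensembl features alone, 2 after the length and GC correction, 7 with the covariate, 15 without untreated replicates 6 and 8 and 14 to 41 with 1 library left out. There 11 were called lower in the main test, 2 with the covariate and 7 without replicates 6 and 8.

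The 14 called genes all kept their calls with RLE factors, DESeq2, limma-voom and no filter. Of them 2 (Hnrnpul2 and Hnrnpd) kept them with Ensembl features alone and after the length and GC correction, and 0 with the covariate. Among the genes named by rule, signs turned for Snrpd2 with the covariate (-0.26). With Ensembl features alone and the length and GC correction they turned for Sf3b2 (-0.0764 and -0.114), Clk2 (-0.0161 and -0.0548) and Clk4 (-0.00484 and -0.0406). Srsf5 turned with the length and GC correction (-0.0118) and Srpk2 with Ensembl features alone (-0.0116). Hnrnpr, not named by rule, went from -0.02 to 0.47 with the length and GC correction and was called there. Leaving out 1 library, Srpk2 ranged from -0.27 to 0.39 and Snrpd3 from -0.046 to 0.092; Snrpd3 was 0.0144 with RLE factors, 0.0145 with DESeq2 and 0.0295 with no filter. The cause was not tested. No paired analysis was possible because the groups share no replicate numbers. With 5 and 3 libraries, changes of the small size seen in most of these genes lay near the threshold, and a missed threshold does not show equal levels.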
